A study of Mus musculus with 11 samples.

Results

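Oxidative phosphorylation genes were followed in mouse liver at 4 stages of development: E14.5, E18.5, P5 and P56. The genes were taken by name from the array, as every gene called Nduf (subfamilies a, b, c, s and v), Sdha to Sdhd, Uqcr, Cox4 to Cox8 or Atp5. This gave 80 of the 27962 genes named on the array, through 108 probes. Of these, 77 passed the filter on dim probes and were tested among 16705 genes. They comprised 34 genes of complex I, 4 of complex II, 7 of complex III, 14 of complex IV and 15 of complex V. The other 3 carry such a name but encode no subunit: Cox4nb is now listed as Emc8 and Atp5s as Dmac2l, and Cox7a2l encodes a factor of respiratory supercomplexes. Cox4i2, Cox8b and Cox8c were not well above background in the sample channel on any of the 11 arrays and were not tested.

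RNA amplified from total RNA was hybridised to 11 arrays, each labelled as a biological replicate. E14.5, E18.5 and P56 have 3 arrays each, and P5 has 2, its replicates 2 and 3. The labels give embryonic days 14 and 18 and postnatal days 5 and 56, and no strain, genotype, sex or treatment. On every array the sample carried Cy5 and a commercial normal adult mouse liver RNA carried Cy3, so that a value is a log2 ratio of the sample to that common reference, with no dye swap. The labels call the cells hepatoblasts at E14.5, immature hepatocytes at E18.5 and hepatocytes at P5 and P56, but also call each source mouse liver and mention whole livers beside isolated cells, so which of these was hybridised is not settled. In either case fewer cells of a type cannot be told apart from less RNA per cell.

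Oxidative phosphorylation is the main source of ATP in the adult hepatocyte. Complexes I (NADH dehydrogenase) and II (succinate dehydrogenase, also an enzyme of the citric acid cycle) pass electrons to ubiquinone, complex III passes them on to cytochrome c, and complex IV reduces oxygen. Complexes I, III and IV pump protons out of the mitochondrial matrix, and complex V, the ATP synthase, uses the returning flow to make ATP. Complex II is wholly encoded in the nucleus, while the other complexes combine nuclear subunits with subunits made in the mitochondrion. The liver before birth is also a site of blood formation.

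Several features of the arrays bear on all values that follow. Pairwise correlations of replicates over all genes were 0.987 to 0.99 at E14.5 and 0.969 to 0.985 at E18.5, but 0.901 at P5 and 0.827 to 0.937 at P56. Between 22027 and 25718 sample spots were well above background on 9 arrays, against 16790 on P56 replicate 2 and 20131 on P56 replicate 3. P56 replicate 2 gave the highest of the 3 P56 values for 55 of the 77 genes (71.4%, against 39.6% of all genes), and P5 replicate 3 lay above P5 replicate 2 for 57 (74%, against 49.6%). The 14 erythroid markers had array medians between 3.43 and 3.65 at E14.5, between 3.18 and 3.6 at E18.5, between 2.70 and 3.31 at P5 and between -0.04 and 0.02 at P56, and all 14 fell between P5 and P56. The 7 hepatoblast markers had array medians between 3.62 and 3.76 at E14.5, between 4.27 and 4.64 at E18.5, between 3.40 and 3.49 at P5 and between -0.07 and 0.17 at P56. The 8 neutrophil and myeloid markers all rose between E14.5 and E18.5, with array medians going from between -0.14 and 0.09 up to between 3.05 and 3.26. Their medians were 2.10 and 2.14 on the P5 arrays, and all 8 fell by P56, to between -2.33 and -1.62. The 11 measured hepatocyte markers all rose between E14.5 and E18.5, from array medians of -3.46 to -3.14 up to -0.59 to -0.36. The part of blood cells or of array quality in the changes of the oxidative phosphorylation genes was not tested.

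Promoters are shown for 5 genes whose values recur in the sections on complexes II and IV. They include 2 subunits of succinate dehydrogenase, the gene with the largest rise, the gene with the largest fall, and Cox6a1, a complex IV subunit. Each is the 250 bases before the transcription start on its own strand, from RefSeq on build GRCm38.p6. Capitals mark a match, on either strand, to the nuclear respiratory factor NRF1 (GCGCANGCGC) or to the core bound by ETS factors such as GABP (CCGGAAG, which reads CTTCCGG on the other strand). The windows are chr13:74350241-74350490 for Sdha, chr9:50603850-50604099 for Sdhd, chr6:11907451-11907700 for Ndufa4, chr5:115348959-115349208 for Cox6a1 and chr7:4753095-4753344 for Cox6b2, all on the minus strand.
Sdha: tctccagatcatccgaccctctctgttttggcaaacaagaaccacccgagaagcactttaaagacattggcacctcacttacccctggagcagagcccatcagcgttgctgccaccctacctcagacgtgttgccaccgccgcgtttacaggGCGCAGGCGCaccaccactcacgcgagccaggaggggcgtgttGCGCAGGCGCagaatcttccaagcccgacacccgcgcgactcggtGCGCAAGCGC
Sdhd: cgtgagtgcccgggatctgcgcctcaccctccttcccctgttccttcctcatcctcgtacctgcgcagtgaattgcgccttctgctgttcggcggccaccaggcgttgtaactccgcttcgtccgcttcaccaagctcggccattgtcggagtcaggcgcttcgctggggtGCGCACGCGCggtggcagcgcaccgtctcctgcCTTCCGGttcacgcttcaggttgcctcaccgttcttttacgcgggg
Ndufa4: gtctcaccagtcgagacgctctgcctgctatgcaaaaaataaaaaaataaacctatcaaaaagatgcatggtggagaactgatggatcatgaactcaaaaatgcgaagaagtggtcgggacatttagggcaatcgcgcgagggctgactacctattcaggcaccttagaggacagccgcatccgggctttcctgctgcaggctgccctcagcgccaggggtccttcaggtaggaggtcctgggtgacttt
Cox6a1: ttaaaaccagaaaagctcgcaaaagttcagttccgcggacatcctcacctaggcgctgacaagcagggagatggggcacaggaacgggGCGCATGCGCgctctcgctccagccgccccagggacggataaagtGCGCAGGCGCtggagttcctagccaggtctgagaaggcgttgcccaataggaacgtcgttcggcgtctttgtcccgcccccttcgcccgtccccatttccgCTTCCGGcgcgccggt
Cox6b2: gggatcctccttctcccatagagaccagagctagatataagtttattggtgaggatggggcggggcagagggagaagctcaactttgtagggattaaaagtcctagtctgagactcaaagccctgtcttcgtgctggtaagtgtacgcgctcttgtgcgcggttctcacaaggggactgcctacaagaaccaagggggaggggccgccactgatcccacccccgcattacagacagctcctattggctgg
Sdha held 3 NRF1 matches, Sdhd and Cox6a1 held both motifs, and neither Ndufa4 nor Cox6b2 held a match to these letters in this window. Of the 64 tested genes with a promoter in the table, 12 (18.8%) held the NRF1 letters and 11 (17.2%) the ETS core, against 3.86% and 7.05% of all 27025 promoters of that length. Of the 51 that were higher at P56 than at E14.5, 11 (21.6%) held the ETS core and 11 (21.6%) the NRF1 letters, while of the other 13 only 1 held the NRF1 letters. The letters of the estrogen-related receptor (TCAAGGTCA) occurred in 1 (1.56%, against 0.366%), and those of YY1 (AAGATGGC) in 0 of the 64 (against 1.59%). Binding of these factors was not tested, and the genes Nrf1 and Gabpb1 themselves fell from E14.5 to P56 (-1.24 and -0.89).

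Across the 4 stages, the genes as a group stayed near the adult reference before birth and lay above it in the adult samples. Averaged over the arrays of a stage, the median log2 ratio of the 77 genes was 0.07 ± 0.03 (SD, n = 3) at E14.5, 0.10 ± 0.05 (n = 3) at E18.5, 0.42 ± 0.16 (n = 2) at P5 and 1.05 ± 0.25 (n = 3) at P56. The arrays of P56 did not overlap those of any earlier stage in this median, and ranged from 0.79 to 1.28. The reference is itself normal adult liver RNA, so the P56 median of 1.05 is an excess over a like tissue. The rise of the group to P56 rests on this excess, and its source was not tested. At P56, 62 of the 77 genes (80.5%) were above the reference on all 3 arrays, against 34.4% of all genes. The highest stage mean fell at P56 for 60 genes (77.9%, against 36.3% of all genes), and the lowest fell at E14.5 for 50 (64.9%, against 33.2%).

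**Figure D1:**
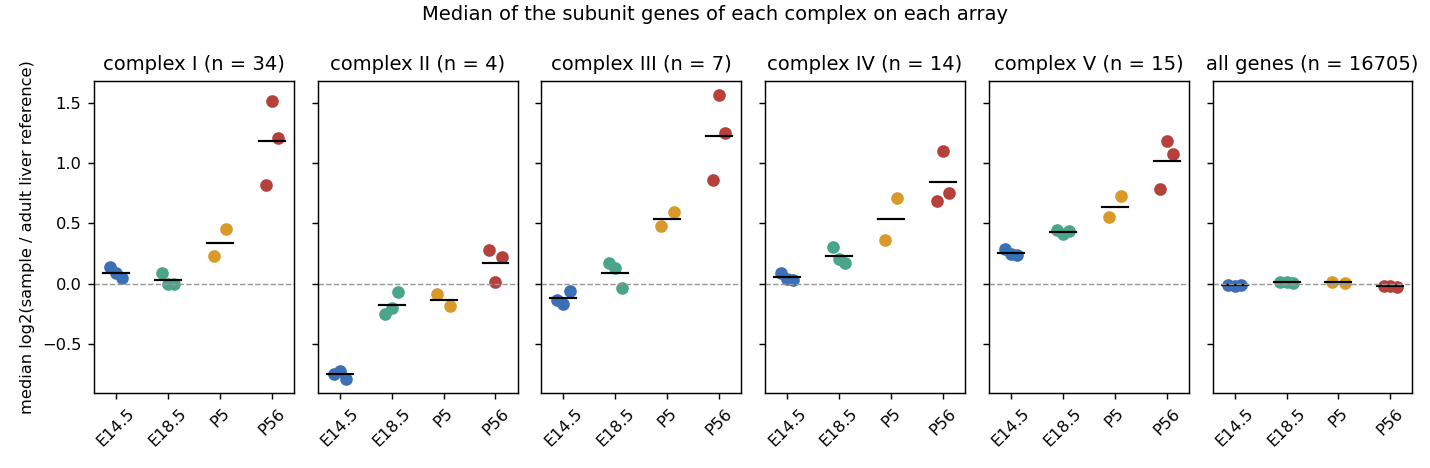
Median log2 ratio of the sample to the adult liver reference over the genes of each complex, 1 point per array, with a bar at the stage mean; the last panel shows all 16705 genes tested. Complex II lies between -0.79 and -0.72 at E14.5 and between -0.26 and -0.07 at E18.5, whereas complexes I and III reach their highest values, 1.52 and 1.56, on P56 replicate 2.

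Between E14.5 and E18.5 the change of the genes was mixed. With limma, 17 of 77 (22.1%) rose and 5 (6.49%) fell, beside 24.6% and 22.8% of all genes tested, so that the share that rose was close to the background and the share that fell was below it. The largest rises were Sdha, Cox7a1, Cox6a1, Uqcrfs1 and Sdhc, and the falls were Cox4nb, Ndufa11, Cox6b2, Ndufa12 and Ndufs8. The median of the 77 log2 fold changes exceeded the median of all genes by 0.16. When loess was replaced by centring every array on its own median, it lay below that of all genes by 0.02. The counts were then 4 higher and 9 lower, beside 22.8% and 18.9% of all genes. In the Cy5 channel alone it lay below by 0.12, with 3 higher and 18 lower, beside 20.6% and 27.8% of all genes. In the scanner's own processed signals 37 genes rose and 4 fell, beside 27.3% and 19.1% of all genes. Leaving out any 1 array of these stages brought the 17 down to between 8 and 10, beside 21% to 23.5% of all genes. With the scan as a block 8 rose and 3 fell, beside 17.9% and 14% of all genes. Within the scan that held all E14.5 arrays and E18.5 replicate 1 the median difference was 0.21.

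Between E18.5 and P5, around birth, few genes changed and none fell. Cox6c, Uqcrq, Ndufa1, Ndufa11, Uqcrb, Cox5a, Atp5g3 and Atp5s rose, which is 8 of 77 (10.4%) beside 7.32% of all genes, and 0 fell, beside 6.4% of all genes. At an unadjusted limma p under 0.05, 28 genes (36.4%) were higher and 0 lower, beside 14.3% and 14.8% of all genes, and none passed as lower at an adjusted p of 0.05 under any alternative that was run. The median change exceeded that of all genes by 0.27. The count of rises moved with single arrays, as did the share of all genes. It was 3 without E18.5 replicate 2 (4.59% of all genes) and 4 without E18.5 replicate 3 (4.22%). It was 22 without P56 replicate 1 (9.3%) and 17 without P56 replicate 2 (8.23%). With only P5 replicate 2 or only P5 replicate 3 kept, the median change exceeded that of all genes by 0.20 or 0.36. No scan held arrays of both stages, so that scan and stage cannot be told apart here.

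Between P5 and P56 the rise was widespread. Of the 77 genes, 41 (53.2%) rose and 5 (6.49%) fell, beside 20.9% and 24.7% of all genes. The falls were Cox6b2, Atp5b, Ndufs1, Ndufa10 and Uqcrc1. The median change exceeded that of all genes by 0.54, and within the scan that held P5 replicate 3 and all P56 arrays the median difference was 0.33. With only P5 replicate 3 kept at P5, the median change exceeded that of all genes by 0.35. Without P56 replicate 1 the falls numbered 8, beside 23.5% of all genes. With the scan as a block 19 rose and 2 fell, beside 12.1% and 15.9% of all genes. Centring each array on its median shifted all genes by -0.47 and gave 13 rises and 23 falls, beside 3.9% and 53.1% of all genes, and the genes' median exceeded that of all genes by 0.50.

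Over the whole course from E14.5 to P56, 59 of 77 genes (76.6%) rose and 4 (5.19%) fell, beside 36.1% and 34.8% of all genes. The largest rises were Ndufa4, Ndufb9, Cox6c, Ndufa1 and Cox7a1, and the falls were Cox6b2, Cox4nb, Ndufa10 and Atp5b. The median change exceeded that of all genes by 0.91, with 58 to 62 rises whichever array was left out. Centring each array on its median, which shifted all genes by -0.33, gave 43 rises and 16 falls, beside 14.6% and 49.3% of all genes. The shares of 36.1% and 34.8% are the background of every main count over this course given below. The shares of 14.6% and 49.3% are that of every such count for centred arrays. The Cy5 channel alone gave 55 rises and 7 falls, beside 36.7% and 36.1% of all genes. The comparisons share arrays and their counts are not independent of each other, and no scan held arrays of both E14.5 and P56.

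**Figure D2:**
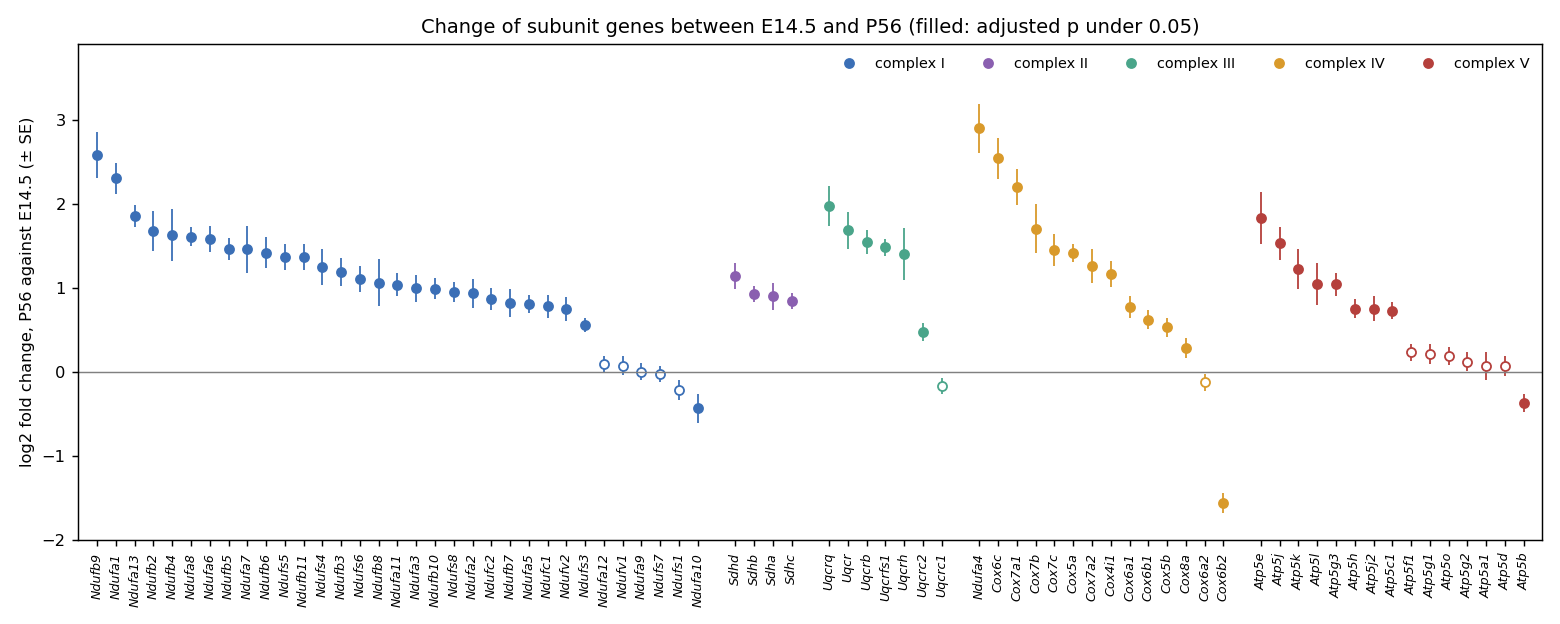
Log2 fold change between E14.5 and P56 of the subunit genes, by complex, without 1 complex I gene and in order of size, with bars of 1 standard error; filled points passed an adjusted p of 0.05. Changes range from 2.90 for Ndufa4 to -1.55 for Cox6b2, and all 4 genes of complex II lie between 0.84 and 1.14.

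The subunits of complex I changed unequally. Of its 34 genes, 27 rose and 1 fell between E14.5 and P56, and 23 rose and 2 fell between P5 and P56, which became 21 and 7, and 9 and 6, when centred on array medians. From P5 to P56, 3.9% of all genes rose and 53.1% fell after that centring. The 27 accessory subunits, which surround the catalytic core and take no direct part in electron transfer, had 24 rises and 1 fall over the whole course, with a median log2 fold change of 1.19. The 7 nuclear core subunits, which carry the flavin and iron-sulfur centres, had 3 rises and a median of 0.14. With each array centred on its median the accessory group had 21 rises and 3 falls and the core group 0 and 4. P56 replicate 2, with few spots above background, was the highest P56 array for 25 accessory genes (92.6%) and 1 core gene (14.3%), beside 39.6% of all genes. P5 replicate 3 lay above replicate 2 for 25 accessory and 4 core genes. The part of these arrays in the difference was not tested. Without P56 replicate 2, 27 genes of complex I rose over the whole course, beside 34.1% of all genes. The difference between these groups of genes is a description, since genes of a complex are not replicates.

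**Figure D3:**
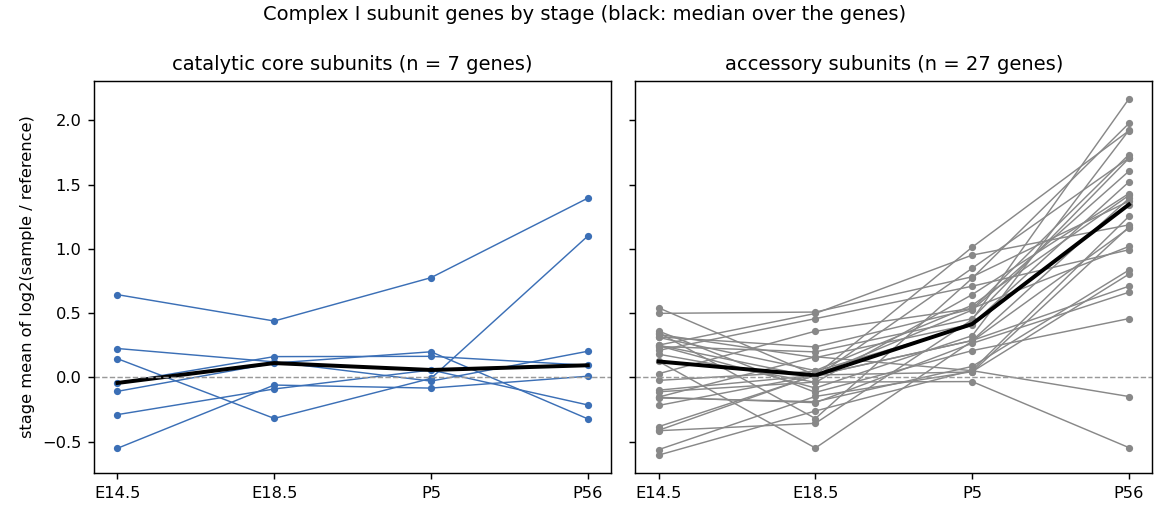
Stage mean of the log2 ratio to the adult liver reference for each complex I gene, with the median over genes in black; core subunits are on the left and accessory subunits on the right. The accessory median goes from 0.12 at E14.5 to 1.34 at P56, and the core median from -0.04 to 0.09.

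Ndufb9, an accessory subunit of the membrane arm, had log2 ratios of -0.44, -0.38 and -0.43 at E14.5, -0.31, -0.34 and -0.43 at E18.5, 0.15 and 0.75 at P5, then 1.38, 2.82 and 2.30 at P56. The prenatal arrays overlapped one another, and every P56 array lay above both P5 arrays. The rise from E14.5 to P56 was 2.58 ± 0.28 (SE, adjusted p = 4.71e-06), and that from P5 to P56 was 1.72 ± 0.31 (adjusted p = 0.000833). Ndufa1, a small accessory subunit, had -0.31, -0.35 and -0.49 at E14.5, 0.10, -0.07 and 0.02 at E18.5, 0.69 and 1.33 at P5, then 1.65, 2.34 and 1.76 at P56. Its levels did not overlap between any neighbouring stages, and it was 1 of only 2 complex I genes to rise between E18.5 and P5, by 1.00 ± 0.21 (adjusted p = 0.00943). Without P5 replicate 3 this rise was 0.68 (adjusted p = 0.106). A second Ndufa1 probe toward the 5′ end gave 2.15 over the whole course, close to the 2.30 of the probe used. Ndufb2, another membrane-arm subunit, rose by 1.60 ± 0.27 between P5 and P56 (adjusted p = 0.000536), with 0.06 and 0.59 at P5 and 1.26, 2.48 and 2.03 at P56.

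Ndufa11, an accessory membrane subunit, moved down and then up. It had 0.17, 0.14 and 0.06 at E14.5, -0.48, -0.48 and -0.68 at E18.5, 0.13 and 0.44 at P5, then 0.85, 1.33 and 1.30 at P56. It fell by 0.67 ± 0.14 on the log2 scale between E14.5 and E18.5 (adjusted p = 0.00156), then rose by 0.83 ± 0.15 by P5 (adjusted p = 0.00458) and by 0.88 ± 0.15 from P5 to P56 (adjusted p = 0.000621). The rise to P5 was 0.68 without P5 replicate 3 (adjusted p = 0.0535). Ndufs8, a core iron-sulfur subunit, fell between E14.5 and E18.5 by 0.46 ± 0.12 (adjusted p = 0.00749), but by P56 it had risen to 0.83, 1.21 and 1.25, against 0.19, 0.16 and 0.09 at E14.5. Ndufa12, an accessory subunit, fell by 0.48 ± 0.10 between E14.5 and E18.5 (adjusted p = 0.00175), and its P56 arrays, at 0.38, 0.56 and 0.43, overlapped those of E14.5. The fall of Ndufa12 did not pass in the scanner's processed signals (-0.17, adjusted p = 0.282) or with the scan as a fixed block (-0.31, adjusted p = 0.0841). That of Ndufs8 did not pass in the log2 table made by the authors (-0.47, adjusted p = 0.0683) or with that block (-0.50, adjusted p = 0.0534).

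Against these, Ndufs1, the largest core subunit, had 0.25 and 0.15 at P5 and -0.06, -0.57 and -0.34 at P56, a fall of 0.52 ± 0.14 (adjusted p = 0.00885). Without P5 replicate 2 its change was -0.47 (adjusted p = 0.068), and in the log2 table made by the authors it was 0.79, in the opposite direction. Ndufa10, another accessory subunit, had -0.08, -0.14 and -0.11 at E14.5 and -0.16, -0.91 and -0.57 at P56, a fall of 0.43 ± 0.17 (adjusted p = 0.0358). The call for Ndufa10 was lost without P56 replicate 2 (-0.25, adjusted p = 0.156) and also without P56 replicate 3 or any of the E14.5 arrays (adjusted p between 0.0681 and 0.0826). Its fall between P5 and P56 passed (-0.51, adjusted p = 0.0423), although its P5 arrays, at 0.17 and -0.24, overlapped those of P56. The core subunits Ndufs7 and Ndufv1 changed by -0.02 and 0.08 over the whole course and did not pass.

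Complex II was lowest at E14.5 for all 4 of its genes. Of these, 3 were below the reference on every E14.5 array, and all 4 rose between E14.5 and P56, by 0.84 to 1.14. Sdha, Sdhc and Sdhd rose between E14.5 and E18.5, none of the 4 passed the test between E18.5 and P5, and Sdhb, Sdhc and Sdhd rose between P5 and P56. With each array centred on its median, 1 of the 4 rose over the whole course. Between P5 and P56, 2 fell, beside 53.1% of all genes, and the rise to E18.5 remained for Sdha and Sdhc.

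Sdha, the flavoprotein that binds succinate, had -0.98, -1.07 and -0.78 at E14.5, -0.19, -0.14 and 0.06 at E18.5, 0.09 and -0.12 at P5, then 0.27, -0.45 and 0.05 at P56. The E14.5 arrays lay below all later arrays, and the later stages overlapped. It rose by 0.85 ± 0.17 between E14.5 and E18.5 (adjusted p = 0.00121), the largest rise of the 77 genes at that step. Its probe lies at chr13:71255611-71255670 (build mm7, minus strand). A second probe, 5610 bases toward the 5′ end, rose by 0.61 at that step but changed by -0.01 between E14.5 and P56, against 0.90 for the probe used.

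Sdhb, the iron-sulfur protein, had -0.65, -0.68 and -0.79 at E14.5, -0.56, -0.64 and -0.51 at E18.5, -0.25 and -0.47 at P5, then 0.29, 0.11 and 0.26 at P56. Unlike the other 3 it did not pass at E18.5 (0.14, adjusted p = 0.264), and its rise of 0.58 ± 0.11 came between P5 and P56 (adjusted p = 0.000986). There, centring on the array median gave -0.03 for Sdhb and a median of -0.47 for all genes. Sdhc, a membrane anchor that binds haem with Sdhd, rose from -0.85, -0.76 and -0.86 to -0.32, -0.27 and -0.19 at E18.5, by 0.56 ± 0.09 (adjusted p = 0.0004). Its small rise between P5 and P56 (0.30, adjusted p = 0.0368) was lost without any of 6 arrays (adjusted p between 0.0503 and 0.167) and took the opposite sign in the authors' table (-0.72). Sdhd, the other anchor, had 0.20, 0.19 and 0.19 at E14.5, 0.72, 0.56 and 0.62 at E18.5, 0.66 and 0.93 at P5, then 0.95, 1.67 and 1.39 at P56, and was above the reference on all 11 arrays. Its rise to E18.5 (0.44, adjusted p = 0.0323) was lost when any array of those stages was left out (adjusted p between 0.0559 and 0.0939), and its rise from P5 to P56 (0.54, adjusted p = 0.0229) without P5 replicate 2, P56 replicate 2 or P56 replicate 3 (adjusted p between 0.063 and 0.187).

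**Figure D4:**
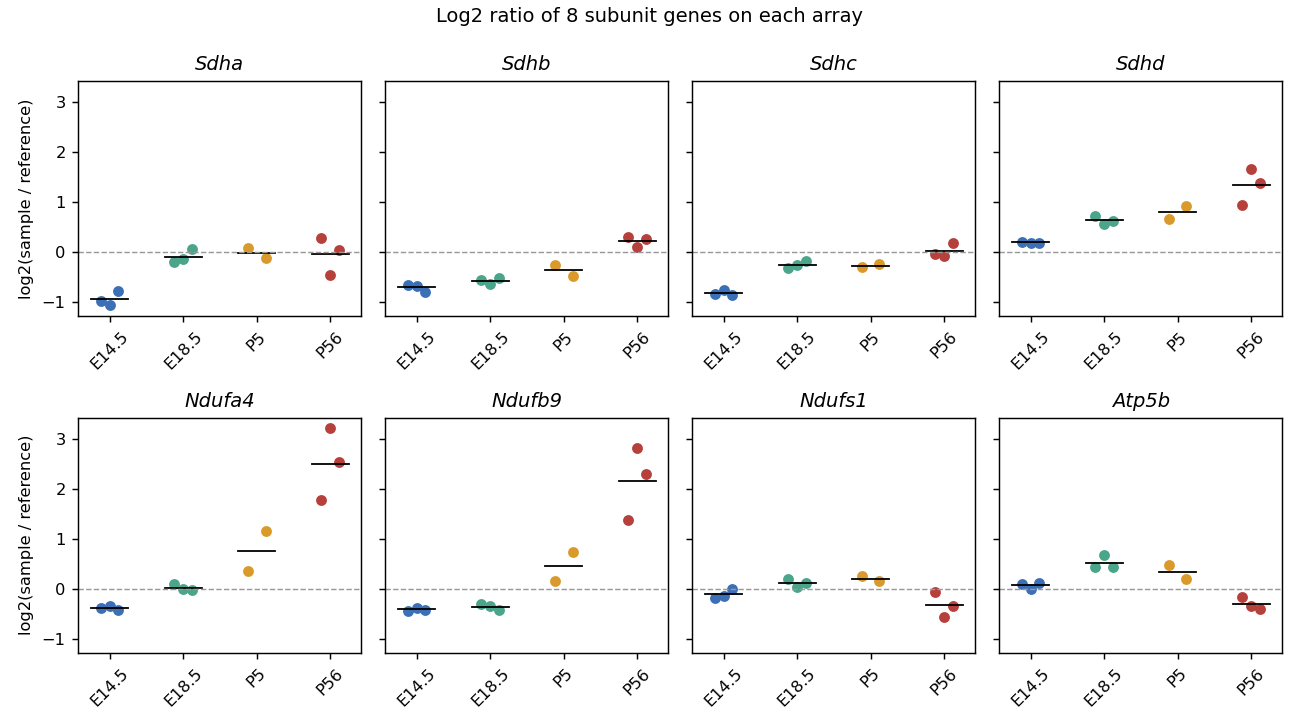
Log2 ratio to the adult liver reference on each array for the 4 complex II genes and for Ndufa4, Ndufb9, Ndufs1 and Atp5b, with bars at the stage means. Sdha reaches its later level by E18.5, Ndufa4 and Ndufb9 lie highest at P56 (up to 3.21 and 2.82), and all P56 arrays of Ndufs1 and Atp5b lie below their P5 arrays.

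In complex III, 6 of 7 genes rose between E14.5 and P56 and the remaining one, Uqcrc1, did not pass, while centring on array medians gave 5 rises and 1 fall. Uqcrfs1, the Rieske iron-sulfur protein and the only catalytic subunit among them, had -0.04, -0.07 and 0.01 at E14.5, 0.68, 0.46 and 0.57 at E18.5, 0.84 and 0.84 at P5, then 1.53, 1.56 and 1.25 at P56. No neighbouring stages overlapped, and it rose by 0.61 ± 0.10 between E14.5 and E18.5 (adjusted p = 0.000491) and by 0.61 ± 0.12 between P5 and P56 (adjusted p = 0.0012). The small subunits Uqcrb and Uqcrq rose between E18.5 and P5. Uqcrb went from -0.18, -0.39 and -0.27 to 0.48 and 0.59, by 0.81 ± 0.16 (adjusted p = 0.00684). Uqcrq, which has no value on E14.5 replicate 3, went from -0.20, -0.33 and -0.36 to 0.43 and 1.06, by 1.04 ± 0.24 (adjusted p = 0.0162). Without P5 replicate 3 these changes were 0.75 (adjusted p = 0.0567) and 0.73 (adjusted p = 0.154), and Uqcrq was also lost without E18.5 replicate 2 (1.02, adjusted p = 0.0523) or replicate 3 (1.01, adjusted p = 0.057).

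Uqcr, a small subunit now listed as Uqcr11, rose between P5 and P56, from -0.31 and 0.27 to 0.86, 1.89 and 1.30, by 1.37 ± 0.24 (adjusted p = 0.000755). Uqcrc1, a large core protein of the matrix arm, fell over the same step by 0.36 ± 0.10 (adjusted p = 0.0143), from 0.13 and -0.03 to -0.21, -0.35 and -0.36. Without P5 replicate 2 its change was -0.28 (adjusted p = 0.131). Its partner Uqcrc2 had 0.00, -0.03 and 0.12 at E14.5 and 0.62, 0.35 and 0.56 at P56, a rise of 0.48 ± 0.11 (adjusted p = 0.00169). Uqcrh was saturated in Cy5 on 2 arrays, which limits its highest values.

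In complex IV, 12 of 14 genes rose between E14.5 and P56 and 1 fell (9 and 2 when centred on array medians), and all 14 had their highest P56 value on replicate 2. Ndufa4, named after complex I but now placed in complex IV, had -0.39, -0.35 and -0.43 at E14.5, 0.10, 0.00 and -0.03 at E18.5, 0.36 and 1.16 at P5, then 1.77, 3.21 and 2.54 at P56. No neighbouring stages overlapped. It rose by 2.90 ± 0.29 over the whole course (adjusted p = 2.6e-06), the largest change of the 77 genes, and by 1.74 ± 0.32 between P5 and P56 (adjusted p = 0.00104). Its probe lies at chr6:11837882-11837941 (build mm7, minus strand). Cox6c, a small membrane subunit, had -0.09, 0.00 and -0.14 at E14.5, 0.34, 0.28 and 0.25 at E18.5, 1.07 and 1.61 at P5, then 1.85, 3.09 and 2.44 at P56. It rose by 2.54 ± 0.24 over the whole course (adjusted p = 1.68e-06). Its rise of 1.05 ± 0.27 around birth (adjusted p = 0.0252) was 0.78 without P5 replicate 3 (adjusted p = 0.215) and was also lost without any one E18.5 array (adjusted p between 0.0574 and 0.0747).

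Several subunits of complex IV are encoded as tissue isoforms, and these did not move alike. Cox7a1 is known as the heart and muscle isoform and Cox7a2 as the liver isoform. Cox7a1 had 0.31, 0.23 and 0.11 at E14.5, 1.01, 1.01 and 0.94 at E18.5, 0.91 and 1.32 at P5, then 1.80, 2.86 and 2.58 at P56. It rose by 0.77 ± 0.22 before birth (adjusted p = 0.0115), by 1.30 ± 0.24 between P5 and P56 (adjusted p = 0.00103) and by 2.2 ± 0.22 in all (adjusted p = 2.18e-06). The rise before birth did not pass in Cy5 alone (0.68, adjusted p = 0.102), in the authors' table (0.93, adjusted p = 0.0519) or with the scan as a fixed block (0.79, adjusted p = 0.0795), nor did the rise from P5 to P56 when centred on array medians (0.38, adjusted p = 0.0827). Cox7a2 had 0.08, 0.04 and -0.06 at E14.5, -0.06, 0.06 and 0.07 at E18.5, 0.45 and 1.07 at P5, then 0.85, 1.75 and 1.24 at P56. Only its rise over the whole course passed (1.26 ± 0.20, adjusted p = 0.000147). Of 9 skeletal muscle and brown fat markers, 4 were above background and tested. Between E14.5 and E18.5, Cidea of brown fat rose by 0.63 (adjusted p = 0.00116) and Myl1 of muscle fell by 1.08 on the log2 scale (adjusted p = 0.0109), with a median of -0.22. None of the 4 rose between P5 and P56 or between E14.5 and P56, beside 20.9% and 36.1% of all genes, and their medians were -0.14 and -0.56. The part of muscle or brown fat in the change of Cox7a1 was not tested.

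Cox6b2, known as the testis isoform of a subunit on the outer face, was the gene with the largest fall. It had 1.78, 1.81 and 1.59 at E14.5, 1.21, 1.27 and 1.18 at E18.5, 1.32 and 0.92 at P5, then 0.10, 0.32 and 0.11 at P56. E18.5 and P5 overlapped, and P56 lay below all other arrays. It fell by 0.51 ± 0.12 between E14.5 and E18.5 (adjusted p = 0.00377), by 0.94 ± 0.13 between P5 and P56 (adjusted p = 0.00014) and by 1.55 ± 0.12 in all (adjusted p = 2.34e-07). It did not pass at the first of these steps in the authors' table (-0.45, adjusted p = 0.0798). Its probe lies at chr7:4326339-4326398 (build mm7, minus strand). The common isoform Cox6b1 had 0.31, 0.12 and 0.08 at E14.5 and 0.64, 0.92 and 0.82 at P56, a rise of 0.62 ± 0.12 (adjusted p = 0.000458). Centring on the array median gave -0.21, where the median of all genes was -0.33. Its rise of 0.46 between P5 and P56 was 0.31 without P5 replicate 2. After that centring it was -0.41, where the median of all genes was -0.47.

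Cox6a1, the liver isoform of another regulatory subunit, rose before birth from 0.05, -0.02 and -0.32 to 0.61, 0.45 and 0.61, by 0.66 ± 0.13 (adjusted p = 0.00122), and was saturated in Cy5 on 2 arrays. This rise did not pass when arrays were centred on their medians (0.33, adjusted p = 0.187) or in the Cy5 channel alone (0.37, adjusted p = 0.266). Its heart and muscle isoform Cox6a2 was dim and changed by -0.12 in all (adjusted p = 0.285). Cox4i1, the common isoform of the subunit Cox4, rose by 1.17 ± 0.15 in all (adjusted p = 2.51e-05), while Cox4i2 was not well above background. Cox8a, the common form of Cox8, changed least among the 12 that rose, by 0.29 ± 0.12 (adjusted p = 0.0453). That call was lost on leaving out any of 8 arrays (adjusted p between 0.057 and 0.197), and the change was 0.15 without P56 replicate 2. After centring on the array median it was -0.10, where the median of all genes was -0.33. Cox8b and Cox8c were not well above background.

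**Figure D5:**
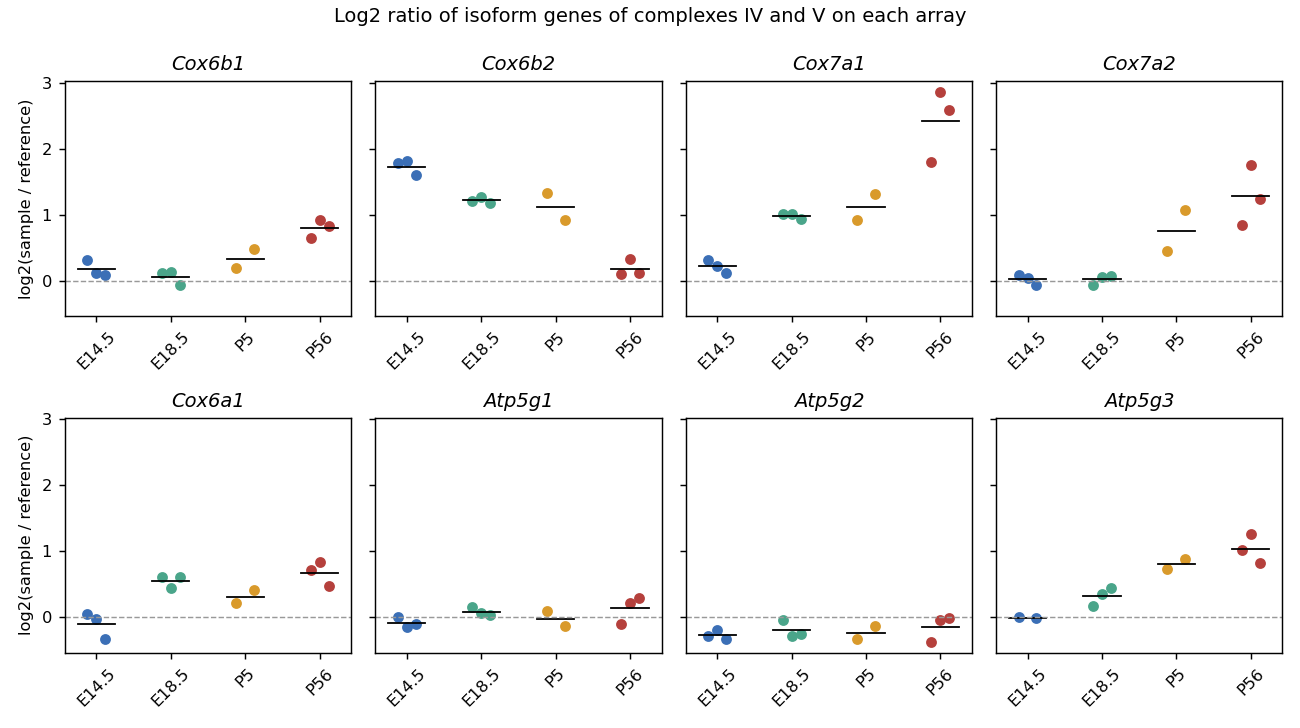
Log2 ratio to the adult liver reference on each array for isoform genes of complexes IV and V, with bars at the stage means. Cox6b2 falls from 1.59 or more at E14.5 to 0.32 or less at P56, Cox7a1 rises to between 1.80 and 2.86, and Atp5g1 and Atp5g2 overlap between E14.5 and P56.

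Complex V had the smallest median change over the whole course, 0.69 above that of all genes, against 0.97 for complex I, 0.87 for complex II, 1.44 for complex III and 1.17 for complex IV; when centred on array medians complex II had the smallest, 0.557 against 0.695 for complex V. Of its 15 genes, 8 rose and 1 fell (7 and 4 when centred on array medians). In the catalytic F1 head the genes diverged. Atp5b, the beta subunit that holds the catalytic sites, had 0.10, -0.01 and 0.11 at E14.5, 0.44, 0.68 and 0.44 at E18.5, 0.47 and 0.20 at P5, then -0.16, -0.35 and -0.40 at P56. It rose by 0.45 ± 0.11 before birth (adjusted p = 0.00524) and fell by 0.64 ± 0.12 between P5 and P56 (adjusted p = 0.00139), with P56 below all other arrays. In its 2 other probes the change before birth was 0.09 and 0.02. The fall from P5 to P56 did not pass in the Cy5 channel alone (-0.19, adjusted p = 0.33). Its overall change of -0.37 (adjusted p = 0.0105) was -0.64 and -1.27 in the other probes, and did not pass in the scanner's processed signals (-0.22, adjusted p = 0.362) or in Cy5 alone (-0.14, adjusted p = 0.38). Atp5a1, the alpha subunit, and Atp5d, the delta subunit, did not pass over the whole course (both 0.07). A second, dimmer Atp5a1 probe changed by -0.46 over that course. Atp5e, the small epsilon subunit, rose by 1.83 ± 0.31 (adjusted p = 0.000218), with 1.02, 1.32 and 1.25 at E14.5 and 2.16, 3.71 and 3.21 at P56. Atp5c1, the gamma subunit of the central shaft, rose by 0.73 ± 0.10 (adjusted p = 4.05e-05).

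In the membrane part and the stalk of complex V, 6 of 10 genes rose and the other 4 did not pass. Atp5g1, Atp5g2 and Atp5g3 encode the same mature c subunit of the rotor ring. Atp5g3, without a value on E14.5 replicate 3, had 0.00 and -0.01 at E14.5, 0.17, 0.36 and 0.45 at E18.5, 0.73 and 0.88 at P5, then 1.02, 1.26 and 0.82 at P56, and rose by 1.04 ± 0.14 in all (adjusted p = 4.73e-05). Its rise to P5 (0.48, adjusted p = 0.0436) was lost on leaving out any E14.5 or E18.5 array or P5 replicate 3 (adjusted p between 0.0518 and 0.237). Atp5g1 and Atp5g2 did not pass in any comparison, with changes of 0.21 and 0.12 over the whole course. The small membrane subunits Atp5k and Atp5l rose by 1.22 and 1.05, and Atp5j, the coupling factor of the stalk, by 1.53.

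Among the names outside the complexes, Cox4nb fell from 1.57, 1.31 and 1.27 at E14.5 to 0.58, 0.56 and 0.52 at E18.5, by 0.83 ± 0.14 (adjusted p = 0.000543), and was 0.57 lower at P56 than at E14.5 on the log2 scale (-0.57, adjusted p = 0.00344). Atp5s rose by 0.65 over the whole course in the brighter of its 2 probes, while the dimmer one changed by -0.31, and Cox7a2l rose by 0.44. Leaving these 3 out gave 57 rises and 3 falls among 74. Further subunits stood on the array under names the rule does not take. Among them Usmg5 (1.89) and 2010107E04Rik (1.02) of complex V, 1110020P15Rik (Uqcr10, 1.32) and Cyc1 (0.51) of complex III, and 1500032D16Rik (Ndufv3, 0.86) and Ndufab1 (0.32) of complex I rose from E14.5 to P56, and other such names were not searched for.

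Probes at different ends of a transcript changed unequally. Over 740 pairs of probes to the same transcript, the 5′ probe changed by 0.14 less than the 3′ probe between E14.5 and P56 (median -0.14). The median of the 5′ minus the 3′ probe was 0.09 to 0.13 on the E14.5 arrays and -0.07 to 0.03 on those of P56. Such pairs existed for 11 of the genes, and in 7 of them the 5′ probe had the lower change. The part of this in the results was not tested.

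Genes that work beside the complexes were counted from further lists. Of 17 measured assembly factors, 5 fell between E14.5 and E18.5, near the 22.8% of all genes. The others did not pass, while 24.6% of all genes rose. Their array medians went from between -0.13 and 0.03 to between -0.39 and -0.29. Between E14.5 and P56, 13 rose and 1 fell, beside 36.1% and 34.8% of all genes. The largest rises were Tmem126b of complex I assembly (1.67), Sco1 of copper delivery to complex IV (1.03) and Nubpl of iron-sulfur insertion (0.99). Centring on the array median gave 1 rise and 5 falls over that course, beside 14.6% and 49.3% of all genes, with a median 0.10 above that of all genes. Of 75 mitochondrial ribosomal protein genes, which translate the mitochondrially encoded subunits, 57 fell and 1 rose between E14.5 and E18.5, with a median of -0.55. Of all genes, 22.8% fell and 24.6% rose at that step. Between E14.5 and E18.5, 42 to 66 of the 75 fell under the 4 other scalings that were run. Between P5 and P56, 45 of the 75 rose, beside 20.9% of all genes. Centring on the array median gave 3 rises and 33 falls there, beside 3.9% and 53.1% of all genes, with a median 0.18 above that of all genes. The mitochondrially encoded subunits were not found under their names on the array.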

How the data were processed

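Each of the 11 arrays was an Agilent 4x44k array with 2 colours. Per the file headers, the deposited spot intensities were extracted with Feature Extraction 9.5.1.1. The authors also deposited a table of log2 ratios per gene, for which the submitters' processing notes name limma and whose scaling is not stated; it served as an alternative. RNA was amplified from 2 µg of total RNA. Here, mean intensities were background corrected (normexp, offset 50), normalised by loess within each array, and averaged over spots of a probe after outlier spots were left out. Probes had to pass the scanner's background test in the sample channel on every array of some stage and to lack at most 1 value in any stage, and each gene was represented by its brightest probe. The 4 stages were fitted together in limma 3.58.1 (R 4.3.3), with Benjamini-Hochberg adjustment over all 16705 genes and a threshold of 0.05; a fold change is a difference of log2 ratios. The number of arrays limits the precision. In simulated data for P56 against E14.5, with only 200 of 16705 genes changed, 27% of changes of 0.5 and 86% of changes of 1 (log2) were recovered. In the data themselves 36.1% of genes passed as higher and 34.8% as lower. The adjusted threshold is then less strict, so these rates do not give the recovery in the data.

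Genes were named if they had the 5 largest changes in each direction and comparison without overlap of the arrays, went against the majority, or belonged to complex II or to an isoform set; up to 3 per further list were named. Others were chosen after their values were seen, among them the remaining calls listed around birth, the uncalled core subunits of complex I, and most subunits of complexes III and V. The members and lists were chosen with earlier results of these data known. Scans were taken from the file headers (4 scans). Sequences came from RefSeq, of which 64 of 77 genes had a promoter; Atp5a1, Cox4i1, Cox4nb, Cox6a2, Cox6c, Ndufa2, Ndufb9, Ndufs1, Sdhc, Uqcrb, Uqcrc2 and Uqcrq were among those not matched. The values of 1 gene of complex I are not reported here on their own. Probe coordinates are those of the files (mm7).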

Additional observations from a re-analysis of the deposited data

How the results depend on the processing

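The results were recomputed under 25 alternatives. Medians are given as the median log2 fold change of the genes minus that of all genes. Of the results for single named genes, 1041 kept their direction and side of the threshold, 103 kept the direction but no longer passed, and 7 reversed. Of the counts and medians, 679 changed little and 85 moved; the latter and the reversals follow, and their cause was not tested. Named genes that did not pass (9, 14, 9 and 3 in the 4 comparisons, in order of stage) were not recomputed. The scan could not be fitted as a fixed block for P5 against E18.5 or P56 against E14.5. Arrays with few spots above background, P56 replicates 2 and 3, limit the P56 values, and saturation limits Cox6a1 and Uqcrh.

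With median centring of each array in place of loess, E18.5 against E14.5 gave 4 higher and 9 lower, a median of -0.023, and complex medians of -0.168, 0.337, 0.021, -0.003 and -0.111 (I to V). P5 against E18.5 gave 30 higher, a median of 0.493, and 0.502, 0.268, 0.59 and 0.513 for complexes I, II, III and V. P56 against P5 gave 13 higher and 23 lower and 0.211 for complex II, with Cox6b1 at -0.41, Sdhb at -0.03 and Sdhc at -0.49. P56 against E14.5 gave 16 lower and 0.557 for complex II, with Cox6b1 at -0.21 and Cox8a at -0.1. Of all genes, 22.8% were higher and 18.9% lower for E18.5 against E14.5, and 5.5% higher for P5 against E18.5. For P56 against P5, 3.9% were higher and 53.1% lower, with a median of -0.47. For P56 against E14.5, 49.3% were lower, with a median of -0.328. The values of single genes here are not corrected for these medians.

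With the scanner's processed signals, E18.5 against E14.5 gave 37 higher, a median of 0.355, and 0.244, 0.718, 0.428, 0.42 and 0.355 for complexes I to V. P5 against E18.5 gave 5 higher and 0.317 for complex V, P56 against P5 gave 26 higher, and P56 against E14.5 gave 1.336 and 0.891 for complexes IV and V. With Cy5 alone, E18.5 against E14.5 gave 3 higher and 18 lower, a median of -0.124, and -0.238, 0.289, -0.123, -0.073 and -0.113 for complexes I to V. P56 against P5 gave 2 lower. P56 against E14.5 gave 7 lower, a median of 0.689, and 0.73, 1.084, 0.795 and 0.462 for complexes II to V. With the processed signals, 27.3%, 4.68% and 18.7% of all genes were higher at the steps in order of stage. With Cy5 alone, 20.6% of all genes were higher and 27.8% lower for E18.5 against E14.5. The shares lower were 24.3% for P56 against P5 and 36.1% for P56 against E14.5.

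With the authors' table, E18.5 against E14.5 gave 11 higher and 3 lower, beside 21.4% and 15.2% of all genes, with 0.682 and 0.133 for complexes II and V. P5 against E18.5 gave 2 higher, beside 3.36% of all genes, and 0.204 for complex II. P56 against P5 gave 0.167 for complex II, with Ndufs1 at 0.79 and Sdhc at -0.72, and P56 against E14.5 gave 0.945 for complex IV. Without background correction complex V gave 0.206 for E18.5 against E14.5, and as the mean over all probes 0.105. With no filter on dim probes complex IV gave 0.126 for P5 against E18.5 and 0.751 for P56 against E14.5. With probes above background on all arrays complex II gave 0.751 for P56 against E14.5.

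With the scan as a fixed block, E18.5 against E14.5 gave 8 higher and 3 lower, a median of 0.215 and 0.147 for complex I, and P56 against P5 gave 19 higher and 2 lower. The shares of all genes, higher and lower, were 17.9% and 14%, then 12.1% and 15.9%. As a random block the correlation within a scan was 0.183.

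Same-numbered replicates of different stages did not deviate together: over 15 pairs the correlations ran from -0.306 to 0.187, with 1 over 0.1, so that the samples share only a number. With the replicate block, 12 were higher and 5 lower for E18.5 against E14.5, 3 higher for P5 against E18.5, 41 higher and 6 lower for P56 against P5, and 59 higher and 4 lower for P56 against E14.5. The shares of all genes, in that order, were 23.7% and 21.4%, 5.71%, 18.3% and 22.7%, and 35% and 34%.

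Leaving out each array in turn gave 8 to 21 higher for E18.5 against E14.5, 1 to 22 higher for P5 against E18.5, and 20 to 51 higher and 2 to 8 lower for P56 against P5. Complex V ranged from 0.138 to 0.179 for E18.5 against E14.5, complex III from 0.278 to 0.6 for P5 against E18.5, and complex IV from 1.013 to 1.332 for P56 against E14.5. The shares of all genes also moved with the array left out. Without a P5 array the remaining one was assumed to vary like the other stages.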

Other observations

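Electron carriers that feed the respiratory chain from fat oxidation were lowest at E14.5. Etfdh, which passes electrons from fatty acid oxidation to ubiquinone, had log2 ratios of -2.45, -2.35 and -2.26 at E14.5 and -0.41, -0.42 and -0.36 at E18.5. It rose by 1.96 to E18.5 (adjusted p = 4.47e-08) and by 1.02 to P5 (adjusted p = 0.000239), and fell by 0.46 from P5 to P56 (adjusted p = 0.00698). Etfb, a subunit of the flavoprotein that supplies it, rose by 1.17 to E18.5 and by 1.95 in all. Atpif1, the inhibitor of the ATP synthase, had 2.66, 2.87 and 2.85 at E14.5 and 0.00, 1.03 and 0.51 at P56, a fall of 2.28 (adjusted p = 1.27e-06). Of the 7 carrier and flavoprotein genes, 5 rose and 1 fell between E14.5 and P56, beside 36.1% and 34.8% of all genes.

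All 7 measured genes of transport across the mitochondrial membranes fell between E14.5 and P56, beside 34.8% of all genes. The largest falls were Slc25a4, an ADP/ATP carrier (-2.51), the uncoupling protein homologue Ucp2 (-1.51) and the phosphate carrier Slc25a3 (-1.19). In the log2 ratios made by the authors, 3 of these 7 genes passed as lower, beside 30.2% of all genes. Of 17 genes of the citric acid cycle and pyruvate dehydrogenase, 7 rose and 5 fell over that course, shares near the 36.1% and 34.8% of all genes. Among them Suclg2 (1.12) and Sucla2 (0.98) were higher and the citrate synthase gene Cs (-1.02) lower. Centring on the array median gave 0 rises and 10 falls, beside 14.6% and 49.3% of all genes, with a median 0.56 below that of all genes (-0.56). Of 17 regulators of mitochondrial biogenesis, 7 rose and 3 fell, beside 36.1% and 34.8% of all genes. The mitochondrial transcription factor Tfb2m (1.93) and the nuclear receptor Esrra (1.82) were higher and the coactivator Pprc1 (-1.60) lower. The same centring gave 3 rises and 10 falls, with a median of -0.32 relative to all genes. Ppargc1a, the coactivator PGC-1alpha, was highest at P5 (1.76 and 1.04), having risen by 1.45 to E18.5 and by 0.97 to P5 before a fall of 1.71 to P56. Nrf1 and the GABP gene Gabpb1 fell between E14.5 and P56 (-1.24 and -0.89), and Gabpa changed by 0.14 and did not pass.

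Cytosolic ribosomal protein genes, a list chosen after the data were seen, had medians over 86 genes of 1.68 to 1.71 at E14.5 and 0.21, 1.12 and 0.82 on P56 replicates 1, 2 and 3.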
